A study of Mus musculus with 11 samples.

Results

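The genes described here are *Nlrc5* and 9 genes of the MHC class I antigen presentation pathway, chosen by name: the heavy chains *H2-K1* and *H2-D1*, the light chain *B2m*, the peptide transporter subunits *Tap1* and *Tap2*, the loading chaperone *Tapbp* and the immunoproteasome subunits *Psmb8*, *Psmb9* and *Psmb10*. Of these 10 genes, 9 had a row among the 14272 genes with values. *Psmb8* had no row in the files used and was not analysed here. The libraries came from 4 mouse cell lines in culture that form a melanoma progression series. Melan-a cells are nonmalignant melanocytes, syngeneic with C57BL/6, and were kept with 200 nM PMA. The other lines were obtained from melan-a by repeated cycles of blocked adhesion. 4C is pre-malignant and mesenchymal-like, 4C11- is a non-metastatic and mesenchymal-like melanoma, and 4C11+ is a metastatic melanoma with an epithelial look. The data held 2 melan-a libraries (replicates 2 and 3, replicate 1 not analysed here) and 3 libraries of each other line. PMA was given to melan-a alone, so its effect and that of the line cannot be told apart. Each line is a single derivation, so the libraries of 1 line show the spread between cultures and not between independent transformations.

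MHC class I molecules show peptides from inside the cell to CD8 T cells. The proteasome cuts the peptides, and the immunoproteasome does so with exchanged catalytic subunits. TAP1 and TAP2 carry them into the endoplasmic reticulum, where tapasin, the product of *Tapbp*, helps to load them on a heavy chain paired with beta-2 microglobulin. NLRC5 is a transactivator that joins a protein complex on the promoters of class I genes and of several genes of this pathway, and its own transcription responds to interferon gamma. Loss of class I is a known route by which tumor cells escape T cells, while natural killer cells respond to cells that lack it.

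In the GENCODE M21 annotation of GRCm38, 7 of the 10 genes lay on chromosome 17, in the MHC. *Tapbp* was at chr17:33915899-33929292, *H2-K1* at chr17:33996017-34000347, *Psmb9* at chr17:34181987-34187764, *Tap1* at chr17:34187553-34197225, *Psmb8* at chr17:34197721-34201454, *Tap2* at chr17:34203527-34216321 and *H2-D1* at chr17:35262730-35267499. *Psmb9* and *Tap1* lie head to head on opposite strands, and their annotations share 212 bases. *B2m* was at chr2:122147686-122153083. *Nlrc5* (chr8:94434356-94527272) and *Psmb10* (chr8:105935735-105938444) were both on chromosome 8, 11.4 Mb apart.

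The promoters of *H2-K1*, *H2-D1*, *B2m* and *Tap1* are shown because the first 3 are known targets of the complex that NLRC5 joins, and because *Tap1* shares its start region with *Psmb9*. Each window of 300 bases runs from 250 bases before to 50 bases after a RefSeq transcript start (GRCm38.p6). Capitals mark every match, on either strand, to 4 motifs: GAAANNGAAA, a form of the interferon-stimulated response element, the Y box CCAAT bound by NF-Y, TGACG, the core letters of the cyclic AMP response element, and the GC box GGGCGG. The *H2-K1* window was chr17:34000284-34000583 (minus strand), the *H2-D1* window chr17:35262844-35263143 (plus strand), the *B2m* window chr2:122147437-122147736 (plus strand) and the *Tap1* window chr17:34187306-34187605 (plus strand).
H2-K1: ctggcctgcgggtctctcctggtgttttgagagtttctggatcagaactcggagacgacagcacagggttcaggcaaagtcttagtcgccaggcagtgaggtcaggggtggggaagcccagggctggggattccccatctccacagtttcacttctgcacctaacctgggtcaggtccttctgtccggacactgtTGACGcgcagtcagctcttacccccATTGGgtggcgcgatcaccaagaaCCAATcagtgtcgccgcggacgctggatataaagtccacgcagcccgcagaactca
H2-D1: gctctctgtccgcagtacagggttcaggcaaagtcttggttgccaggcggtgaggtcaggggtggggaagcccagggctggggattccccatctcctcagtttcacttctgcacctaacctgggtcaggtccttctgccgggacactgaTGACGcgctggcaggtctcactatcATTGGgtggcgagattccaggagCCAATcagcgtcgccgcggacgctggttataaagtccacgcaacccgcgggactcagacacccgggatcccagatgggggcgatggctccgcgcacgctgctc
B2m: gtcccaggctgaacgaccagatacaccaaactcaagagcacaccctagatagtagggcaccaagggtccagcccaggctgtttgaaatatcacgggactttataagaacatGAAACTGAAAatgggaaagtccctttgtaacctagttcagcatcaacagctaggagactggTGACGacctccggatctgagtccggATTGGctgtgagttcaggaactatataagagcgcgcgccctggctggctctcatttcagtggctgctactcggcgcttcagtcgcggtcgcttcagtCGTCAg
Tap1: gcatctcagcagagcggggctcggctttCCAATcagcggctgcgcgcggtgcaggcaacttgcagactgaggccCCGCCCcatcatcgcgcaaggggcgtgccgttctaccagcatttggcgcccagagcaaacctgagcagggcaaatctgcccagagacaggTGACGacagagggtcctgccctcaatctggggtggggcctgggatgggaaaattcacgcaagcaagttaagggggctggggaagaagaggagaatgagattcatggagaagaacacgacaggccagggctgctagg

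The *H2-K1*, *H2-D1* and *B2m* windows shared a layout. In all 3, TGACG was followed by ATTGG, the Y box read on the other strand, with 25 bases from the first letter of one to the first letter of the other. That spacing was found in 31 of 32851 RefSeq windows (0.0944%), in either orientation, and was looked up after the printed sequences had been seen. The *H2-K1* and *H2-D1* windows were 87.7% identical over 253 aligned bases. GAAANNGAAA was found in the *B2m* window alone among the 8 listed genes with a window, and in 3.44% of all windows. CCAAT was found in 6 of these genes against 37.4% of all windows, TGACG in 5 against 20.8%, and GGGCGG in 3 (*Tapbp*, *Psmb9* and *Tap1*) against 35.7%. The *Tap1* and *Psmb9* windows overlap by 275 bases, so their matches are largely the same letters. No RefSeq window was given for *Nlrc5* or *Tap2*. A match is a string of letters and not a bound site, and a window without a match may still hold another form of the element.

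All values below are log2 CPM (reads of a gene scaled to library size, on the log2 scale), as the authors deposited them. The libraries share their highest value (13.69) and nearly their median (4.565 to 4.576), so the values were adjusted beyond library size. CPM levels and sums are therefore approximate. Estimated where a value stands for 40 reads, the approximate depth was 3500000 to 7420000 reads a library. As the values were adjusted, other read numbers give other depths, so these figures are rough and not sequencing depths. Libraries of a line correlated over all genes at 0.948 or higher, apart from the pair of melan-a libraries (0.907) and 4C11- replicate 1 (0.888 and 0.924 with the other two). In melan-a, the summed level of 8 melanocyte markers was 1.87e+03 CPM in one library and 9.03e+03 CPM in the other, while in 4C and 4C11- it lay between 3.11 and 11.6 CPM and in 4C11+ between 1.06e+04 and 1.29e+04 CPM. In melan-a, *Tyr* was at -0.25 and 1.29 log2 CPM, so this defining melanocyte enzyme was barely detected there. Fibroblast markers (2 of 6 with a row, *Pdgfra* and *Col1a1*) summed to 1.96e+03 to 2.16e+03 CPM in 4C, 1.63e+03 to 1.95e+03 in 4C11-, 17.8 to 85.6 in melan-a and 7.69 to 9.21 in 4C11+. Leukocyte markers (2 of 10 with a row, *Lyz2* and *Csf1r*) summed to 38.7 CPM at most, in a 4C11- library, and none of the 4 endothelial markers had a row.

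**Figure D1:**
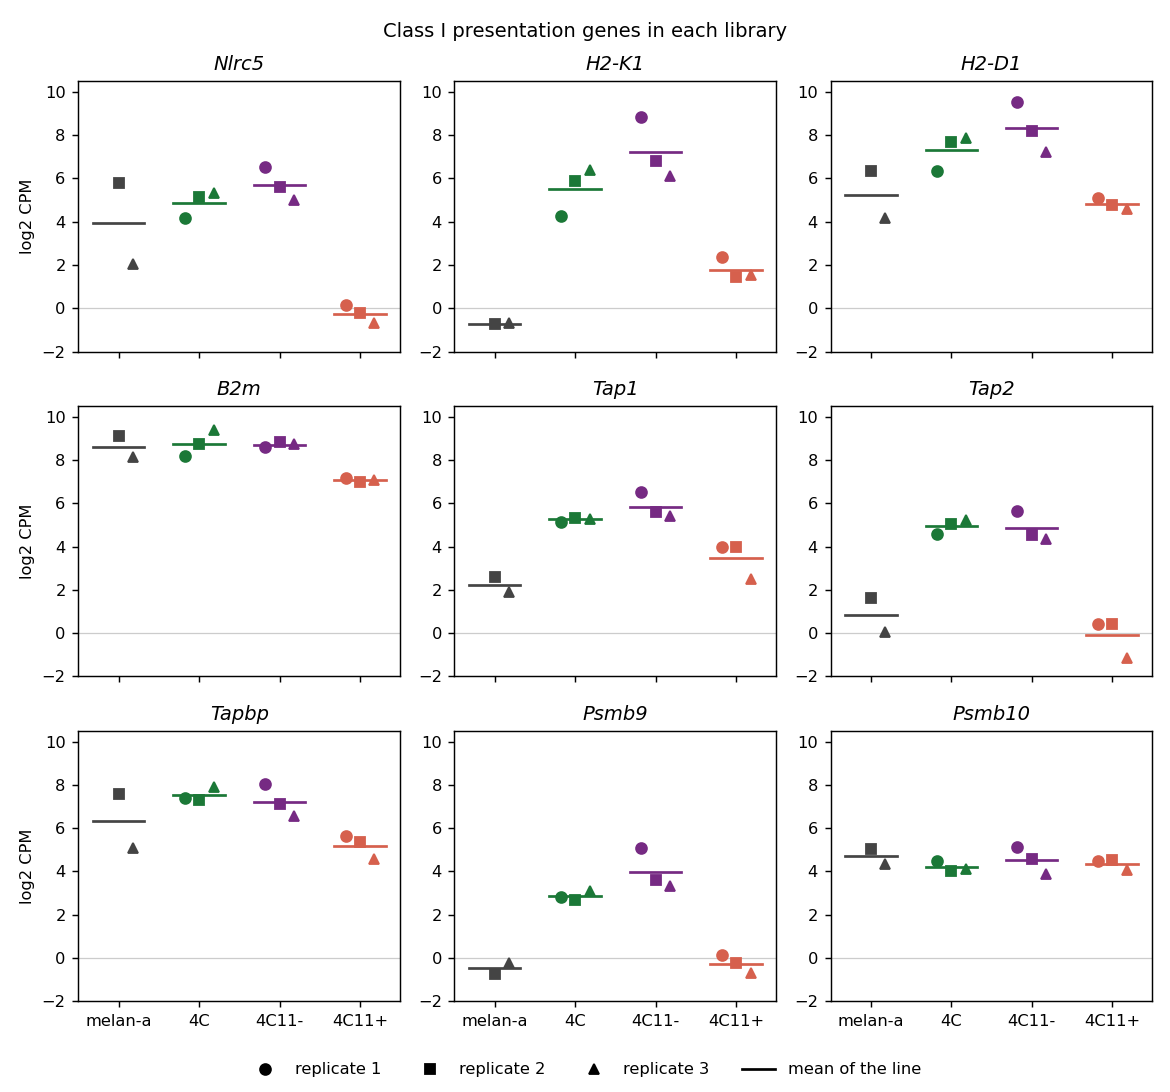
Level of the 9 measured genes (log2 CPM, vertical axis) in the 4 lines (horizontal axis), with 1 point a library, the symbol giving the replicate and the bar the mean of the line. In every gene except *Psmb10* both mesenchymal-like lines have a higher mean than both epithelial lines, and the pair of melan-a points for *Nlrc5* lies 3.79 apart.

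*Nlrc5*, the transactivator, was at 5.81 and 2.03 in the melan-a libraries, at 4.16, 5.14 and 5.31 in 4C, at 6.55, 5.61 and 4.98 in 4C11- and at 0.15, -0.24 and -0.70 in 4C11+. The 4C11+ values stand for 3, 2 and 2 reads, and every other library was above them. The order of the means was 4C11- (5.71 ± 0.79, SD, n = 3), 4C (4.87 ± 0.62), melan-a (3.92 ± 2.68, n = 2) and 4C11+ (-0.26 ± 0.43). The first 3 places could not be told apart (4C11- minus 4C 0.84, SE 0.78, limma adjusted p = 0.698, and 4C minus melan-a 0.95, SE 0.88, limma adjusted p = 0.55), whereas melan-a was above 4C11+ by 4.18 (SE 0.88, limma adjusted p = 0.00872, and 0.0511 when limma was given these lines alone). The 7 reads summed over 4C11+ have an exact Poisson 95% interval of 2.81 to 14.4 reads. With 4C11+ placed at these limits, the 4C11- mean lies 5.22 to 6.66 above it, the 4C mean 4.39 to 5.82 and the melan-a mean 3.43 to 4.87, counting error only. In bulk libraries like these, fewer cells with the transcript and less of it per cell cannot be told apart.

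The melan-a libraries disagreed on *Nlrc5*. Replicate 2 was 3.79 above replicate 3, a gap reached in that direction by 1.2% of all genes. The gap was 2.52 for *Tapbp*, 2.21 for *H2-D1*, 1.56 for *Tap2*, 0.98 for *B2m* and 0.69 for both *Tap1* and *Psmb10*, and 7 of the 9 genes were higher in replicate 2. *H2-K1* (-0.02) and *Psmb9* (-0.49) were not, both at 2 reads in replicate 2. Of the 8 melanocyte markers, 6 were lower in replicate 2, *Tyrp1* by the most (-4.12) and *Mitf* by the least (-0.23), and *Sox10* and *Kit* were higher. Of the fibroblast markers, *Pdgfra* was 2.47 higher and *Col1a1* 0.13 lower. Their part in the gap was not tested. Without replicate 2, with the remaining melan-a library taken to vary like the other lines, the 4C mean was 2.85 above melan-a for *Nlrc5* (limma adjusted p = 0.0145), and 4C11+ differed from it by -2.29 (limma adjusted p = 0.0579).

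Among the heavy chains, which bind the peptide, *H2-K1* was at -0.72 and -0.70 in melan-a, which is 2 reads in each library. It was at 4.24, 5.88 and 6.39 in 4C, at 8.84, 6.79 and 6.10 in 4C11- and at 2.37, 1.44 and 1.53 in 4C11+. No library of melan-a or 4C11+ overlapped with the mesenchymal-like lines. The order was 4C11- (7.24 ± 1.43), 4C (5.50 ± 1.12), 4C11+ (1.78 ± 0.51) and melan-a (-0.71 ± 0.02). 4C11- and 4C overlapped (difference 1.74, SE 0.68, limma adjusted p = 0.274), 4C was above 4C11+ by 3.73 (SE 0.68, limma adjusted p = 0.00156), and 4C11+ was above melan-a by 2.49 (SE 0.76, limma adjusted p = 0.0469). The 4 reads summed over melan-a allow 1.09 to 10.2 reads, which places the 4C mean 5.25 to 7.71 and the 4C11+ mean 1.52 to 3.99 above melan-a.

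*H2-D1*, the other classical heavy chain of this haplotype, was at 6.36 and 4.15 in melan-a, at 6.33, 7.67 and 7.85 in 4C, at 9.52, 8.19 and 7.24 in 4C11- and at 5.10, 4.77 and 4.59 in 4C11+. Unlike *H2-K1*, it was well measured in melan-a. The order was 4C11- (8.32 ± 1.14), 4C (7.29 ± 0.83), melan-a (5.25 ± 1.56) and 4C11+ (4.82 ± 0.26), and no pair of neighbours passed the test (limma adjusted p from 0.0804 to 0.719). Over 2 steps, 4C11+ was below 4C by 2.47 (SE 0.64, limma adjusted p = 0.0119). Of the 100-base windows of the *H2-D1* transcript, 4.64% occur in transcripts of other class I genes, among them *H2-Q7*, *H2-T22* and *H2-K2*, so a small share of its reads could be split. None of the windows of *H2-K1* does.

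*B2m*, the light chain that every class I heavy chain needs, was at 9.10 and 8.12 in melan-a, at 8.18, 8.72 and 9.39 in 4C, at 8.58, 8.85 and 8.72 in 4C11- and at 7.15, 6.99 and 7.08 in 4C11+. Only the 4C11+ libraries stood apart, below all 8 others. The means of 4C (8.76 ± 0.61), 4C11- (8.71 ± 0.14) and melan-a (8.61 ± 0.69) lay within 0.15 of each other, and melan-a was above 4C11+ (7.07 ± 0.08) by 1.54 (SE 0.35, limma adjusted p = 0.0122). Without melan-a replicate 2 this last difference was 1.05 and missed the threshold (limma adjusted p = 0.124).

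The transporter subunits differed from each other in 4C11+. *Tap1* was at 2.58 and 1.89 in melan-a, at 5.15, 5.30 and 5.28 in 4C, at 6.51, 5.60 and 5.40 in 4C11- and at 3.97, 3.97 and 2.49 in 4C11+. *Tap2* was at 1.63 and 0.06 in melan-a, at 4.58, 5.03 and 5.23 in 4C, at 5.64, 4.55 and 4.33 in 4C11- and at 0.44, 0.44 and -1.16 in 4C11+. Both were higher in each mesenchymal-like library than in each epithelial one. *Tap1* was above melan-a by 3.01 in 4C (SE 0.48, limma adjusted p = 0.00121), and *Tap2* by 4.10 (SE 0.63, limma adjusted p = 0.000824). From 4C to 4C11+, *Tap1* fell by 1.76 (SE 0.43, limma adjusted p = 0.009) and *Tap2* by 5.04 (SE 0.56, limma adjusted p = 4.0e-05). 4C11+ and melan-a overlapped in both genes. The *Tap2* values of 4C11+ stand for 4, 4 and 1 reads and those of melan-a for 12 and 5.

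*Tapbp*, the chaperone that holds the heavy chain at the transporter, was at 7.58 and 5.06 in melan-a, at 7.40, 7.32 and 7.91 in 4C, at 8.02, 7.10 and 6.58 in 4C11- and at 5.64, 5.34 and 4.59 in 4C11+. The 4C11+ libraries were below every mesenchymal-like one and overlapped with melan-a. The means of 4C (7.55 ± 0.32), 4C11- (7.23 ± 0.73), melan-a (6.32 ± 1.78) and 4C11+ (5.19 ± 0.54) formed an order in which no neighbours differed by the test (limma adjusted p from 0.252 to 0.858). Annotated exons of *Tapbp* overlap those of an antisense gene over 24.9% of their bases, those of *Tap2* overlap another over 14.1%, and whether the counting used the strand is not given in the sources used here.

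The immunoproteasome subunits diverged. *Psmb9*, an inducible catalytic subunit, was at -0.72 and -0.24 in melan-a (2 and 4 reads), at 2.80, 2.66 and 3.09 in 4C, at 5.07, 3.59 and 3.31 in 4C11- and at 0.15, -0.24 and -0.70 in 4C11+ (3, 2 and 2 reads). It was close to the lower end of detection in both epithelial lines, and 4C was above 4C11+ by 3.11 (SE 0.49, limma adjusted p = 0.000564), or 2.37 to 3.80 within the counting interval of its 7 reads. *Psmb9* thus had a row mainly through the mesenchymal-like libraries, and its direction was largely set by that. *Psmb10*, another inducible catalytic subunit, was at 5.03 and 4.35 in melan-a, at 4.49, 4.00 and 4.13 in 4C, at 5.13, 4.57 and 3.90 in 4C11- and at 4.49, 4.53 and 4.06 in 4C11+. All 4 lines overlapped in *Psmb10*, and its largest difference between neighbours was 0.17 (SE 0.35, limma adjusted p = 0.743).

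Levels of different genes were set side by side only per kilobase of annotated exon. On that scale *B2m* was the most abundant of the 9 genes in each line, at 8.83 log2 CPM per kb in melan-a, at 8.98 in 4C, at 8.93 in 4C11- and at 7.29 in 4C11+. In melan-a the order ran on with *Tapbp* (4.46), *Psmb10* (3.92) and *H2-D1* (3.89), and ended with *H2-K1* (-2.26) and *Psmb9* (-2.35). The order of the last pair is not firm, as both rest on very few reads. It also depends on the length used: all annotated exons hold 2938 bases for *H2-K1* and 3660 for *Psmb9*. Their longest protein-coding transcripts hold 1619 and 1352. In 4C11- *H2-D1* (6.95) and *H2-K1* (5.69) came next to *B2m*. In 4C11+ *Psmb10* (3.59), *H2-D1* (3.45) and *Tapbp* (3.33) followed *B2m*, and *Nlrc5* (-3.35) was last.

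**Figure D2:**
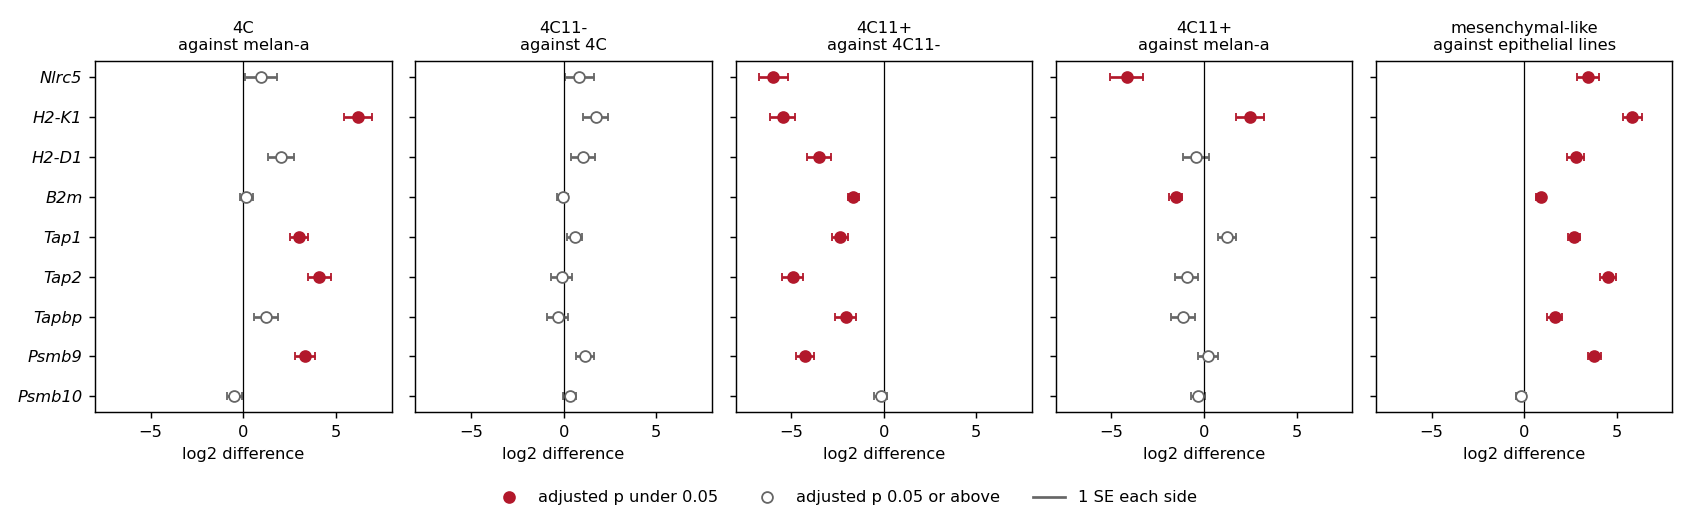
Difference in log2 CPM (horizontal axis) for each gene in 5 comparisons, with bars of 1 SE each side, filled red where the limma adjusted p is under 0.05. In 4C11+ against 4C11- 8 of 9 genes lie to the left and filled, and in 4C11- against 4C no gene is filled.

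The first comparison asks what changed on the step from nonmalignant melanocytes to the pre-malignant line. From melan-a to 4C, 4 of the 9 genes rose and none fell: *H2-K1* by 6.21 (SE 0.76, limma adjusted p = 0.000156), *Tap2*, *Psmb9* by 3.33 (SE 0.55, limma adjusted p = 0.00151) and *Tap1*. Over all 14272 genes, 7.64% were called higher and 7.55% lower. The median difference of the 9 genes was 2.03, beside -0.06 over all genes. *H2-D1* (2.03, limma adjusted p = 0.0804), *Tapbp* (1.22, 0.242), *Nlrc5* (0.95, 0.55), *B2m* (0.15, 0.846) and *Psmb10* (-0.48, 0.483) did not pass. The count was 7 without melan-a replicate 2, with *Nlrc5*, *H2-D1* and *Tapbp* added, 4 without melan-a replicate 3, and 5 without 4C11- replicate 1, with *H2-D1* added (limma adjusted p = 0.0393).

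From the pre-malignant 4C to the non-metastatic 4C11- melanoma, none of the 9 genes passed the limma test, beside 1.26% of all genes called higher and 0.406% lower. *H2-K1* (1.74, unadjusted p = 0.0265 by limma) and *Psmb9* (1.14, unadjusted p = 0.0406 by limma) were the 2 genes under 0.05 before adjustment. The median difference was 0.59, beside 0.01 over all genes. 4C11- replicate 1 was above the mean of the other 4C11- libraries in 8 of the 9 genes, by 2.40 in *H2-K1*, 1.80 in *H2-D1* and 1.62 in *Psmb9*, and was 0.21 below it in *B2m*. It was also 3.79 higher in *Irf7* and 5.31 higher in *Cd74*, the class II chaperone, and 2.15 higher in *Lyz2* and 2.70 higher in *Csf1r*, the leukocyte markers with a row. The part of these in the result was not tested.

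The step to metastasis was measured as 4C11+ against 4C11-. These lines also differ in their mesenchymal-like or epithelial state, so that difference and metastatic potential cannot be told apart here. Here 8 of the 9 genes fell and none rose, beside 15.6% of all genes called higher and 15.4% lower. The differences of *Nlrc5* (-5.97, SE 0.78, limma adjusted p = 0.00015), *H2-K1* (-5.46, SE 0.68, 0.000105) and *Tap2* (-4.93, SE 0.56, 5.2e-05) were the widest, followed by *Psmb9* (-4.25, SE 0.49), *H2-D1* (-3.50, SE 0.64), *Tap1* (-2.36, SE 0.43), *Tapbp* (-2.05, SE 0.56) and *B2m* (-1.64, SE 0.31), with limma adjusted p-values of 6.0e-05, 0.00159, 0.00166, 0.017 and 0.00195. *H2-D1* was thus 11.3-fold lower and *B2m* 3.12-fold lower in 4C11+. *Psmb10* differed by -0.17 (limma adjusted p = 0.743). The median of the 9 genes was -3.50, beside 0.12 over all genes. Without 4C11- replicate 1, 7 genes fell, as *Tapbp* (-1.65) then had a limma adjusted p of 0.0519. *Tapbp* also missed the threshold without 4C11+ replicate 3 (-1.75, limma adjusted p = 0.0632).

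Against melan-a, the other epithelial line, 4C11+ was lower in *Nlrc5* (-4.18) and in *B2m* (-1.54), and higher in *H2-K1* (2.49), while the remaining 6 genes did not pass. Over all genes 8.39% were called higher and 7.52% lower. The median of the 9 genes was -0.44, beside 0.03 over all genes. *Tap1* (1.24, limma adjusted p = 0.106) was higher on average, and *Tapbp* (-1.13, 0.252), *Tap2* (-0.94, 0.341), *H2-D1* (-0.44, 0.719), *Psmb10* (-0.33, 0.606) and *Psmb9* (0.22, 0.823) were not told apart. None of the 3 calls passed without melan-a replicate 2 (limma adjusted p = 0.0579 for *Nlrc5*, 0.124 for *B2m* and 0.169 for *H2-K1*). Without replicate 3 the 3 calls were *Nlrc5*, *B2m* and *Tapbp* (-2.39, limma adjusted p = 0.012), all lower, and *H2-K1* had a limma adjusted p of 0.111. These comparisons share libraries with the ones above and are not independent of them.

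Taking the mesenchymal-like lines together against the epithelial lines, 8 of the 9 genes were higher and none lower, beside 14.3% of all genes called higher and 15.3% lower. *Psmb9* is counted there but had a row mainly through the mesenchymal-like libraries, so its direction was largely set in advance. The same holds for its calls in 4C against melan-a and in 4C11+ against 4C11-. *H2-K1* was higher by 5.84 (SE 0.51, limma adjusted p = 4.6e-06), *Tap2* by 4.51 (SE 0.42, 7.6e-06), *Psmb9* by 3.79 (SE 0.37, 1.1e-05), *Nlrc5* by 3.46 (SE 0.59, 0.000867), *H2-D1* by 2.77 (SE 0.48, 0.001), *Tap1* by 2.68 (SE 0.32, 6.4e-05), *Tapbp* by 1.64 (SE 0.42, 0.0124) and *B2m* by 0.89 (SE 0.23, 0.0125). *Psmb10* differed by -0.16 (SE 0.26, limma adjusted p = 0.699). The median was 2.77, beside -0.09 over all genes. In 4 of these genes melan-a was not told apart from the mesenchymal-like line nearest above it. They were *B2m* (0.10, limma adjusted p = 0.899), *Tapbp* (0.91, 0.409), *Nlrc5* (0.95, 0.55) and *H2-D1* (2.03, 0.0804). For them the split is not shown for each epithelial line on its own. Without melan-a replicate 3, *B2m* (0.65) had a limma adjusted p of 0.0602 and 7 genes remained. Along the same split all 8 melanocyte markers were lower and both measured fibroblast markers higher, and their part in the result was not tested.

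Ratios of gene pairs within a library do not change when all its values shift together. They were chosen after the values had been seen, and libraries of 1 line share their origin, so the exact permutation p-values (6 mesenchymal-like against 5 epithelial libraries, two-sided, smallest possible 0.00433) describe these libraries only. Per kilobase, *Psmb9* relative to *Psmb6*, the constitutive subunit it replaces, had a mean log2 ratio of -8.62 in melan-a, of -6.07 in 4C, of -4.95 in 4C11- and of -9.35 in 4C11+. The mesenchymal-like libraries were higher by 3.54 with no overlap (exact permutation p = 0.00433, adjusted 0.00722 over 5 ratios). *Psmb9* was near the floor in every epithelial library and had a row mainly through the mesenchymal-like ones. That direction was thus largely set in advance, and its p-value adds no support. *Psmb10* relative to *Psmb7*, its constitutive counterpart, was at -1.66, -2.41, -2.25 and -2.24 in the same order, and the groups overlapped (difference -0.32, exact permutation p = 0.186).

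*H2-K1* relative to *H2-D1* had a mean log2 ratio of -6.15 in melan-a, of -1.97 in 4C, of -1.26 in 4C11- and of -3.23 in 4C11+, so *H2-D1* was the more abundant heavy chain in each line. The mesenchymal-like libraries were higher by 2.78 with no overlap (exact permutation p = 0.00433, adjusted 0.00722), the melan-a value resting on 4 reads of *H2-K1*. Both heavy chains summed, relative to *B2m*, were at -4.92, -2.73, -1.47 and -3.69, higher by 2.08 in the mesenchymal-like libraries with no overlap (exact permutation p = 0.00433, adjusted 0.00722). *Tap1* relative to *Tap2* was at 0.86, -0.23, 0.46 and 3.04. The 4C11+ ratios, 3.12 at most, rested on 9 reads of *Tap2* and were above all others, and the groups overlapped through melan-a (difference -2.05, exact permutation p = 0.013, adjusted 0.0162).

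**Figure D3:**
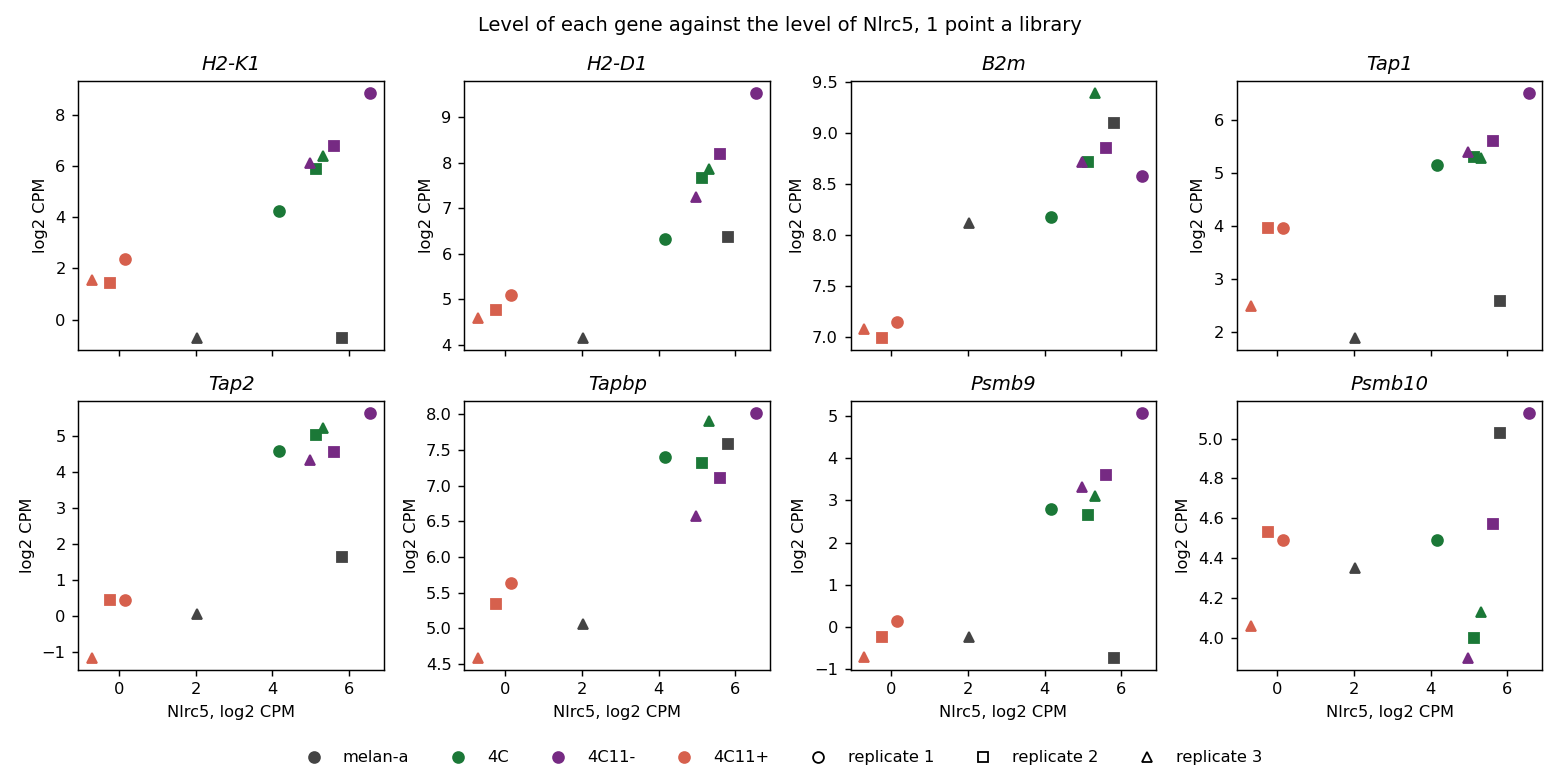
Level of each of 8 genes (log2 CPM, vertical axis) against that of *Nlrc5* (log2 CPM, horizontal axis), with 1 point a library, colour for the line and symbol for the replicate. In *H2-K1*, *Tap1*, *Tap2* and *Psmb9* melan-a replicate 2, with *Nlrc5* at 5.81, lies far below the mesenchymal-like libraries of like *Nlrc5* level.

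*Nlrc5* and its companions were compared across the 11 libraries as a description, as these points share lines and depth. Pearson's r with *Nlrc5* was 0.932 for *B2m*, 0.919 for *Tapbp*, 0.868 for *H2-D1*, 0.864 for *Tap2*, 0.736 for *Psmb9*, 0.606 for *H2-K1*, 0.605 for *Tap1* and 0.272 for *Psmb10*. *B2m* came highest with place 203 among the other genes, so many genes outside the pathway tracked *Nlrc5* more closely. Within lines, the deviations from the line mean correlated with those of *Nlrc5* at 0.949 for *Tapbp* and 0.913 for *H2-D1*, values reached by 0.547% and 1.79% of all genes, and at 0.475 for *H2-K1* and 0.207 for *Psmb9*. The melan-a pair supplied the widest deviations of *Nlrc5*. In melan-a replicate 2, *Nlrc5* was within the range of the 4C11- libraries while *H2-K1* and *Psmb9* were at 2 reads each.

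The genes outside the list with a pattern most like *Nlrc5* were *Snx21* (Pearson's r 0.99), *Col16a1* (0.988), *Efna1* (0.988), *Tgm2* (0.986) and *Hspa2* (0.985), and the most opposite were *Nqo2* (-0.983), *Gnptab* (-0.978), *Mrs2* (-0.972), *Gm20618* (-0.969) and *Nus1* (-0.969). By Spearman's rho 1 of the first 5 and 0 of the others were again among the top 5. To the mean standardized level of the other 8 genes the closest were *Tm9sf4* (0.982), *Capg* (0.977), *H2afv* (0.975), *BC029722* (0.974) and *Flvcr2* (0.971), and the most opposite *Oxct1* (-0.973), *Tspan12* (-0.972), *Efna5* (-0.971), *A830082K12Rik* (-0.97) and *Hmgn3* (-0.969). Each rests on 11 libraries of 4 lines, where any gene that separates the lines in the same order scores high.

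Most neighbours of these genes on chromosome 17 did not pass the test. Between the start of *Tapbp* and the end of *H2-D1* (1.35 Mb), 6 of the listed genes and 59 others had values. In 4C11+ against 4C11- all 6 fell (median -3.87), and of the 59 others 9 fell and 5 rose, with a median of -0.09, beside 15.6% of all genes called higher and 15.4% lower. The 5 that rose, named after their values were seen, were *Rgl2*, *Egfl8*, *Ppt2*, *C2* and *Ly6g5b*, and the class II chaperone genes *H2-DMa* and *H2-DMb1* were among those that fell. The direction of *H2-DMb1* was largely set in advance, as it had a row mainly through the mesenchymal-like libraries. In the mesenchymal-like against the epithelial lines the 6 genes were higher (median 3.28), and of the 59 others 6 were higher and 6 lower (median 0.08).

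**Figure D4:**
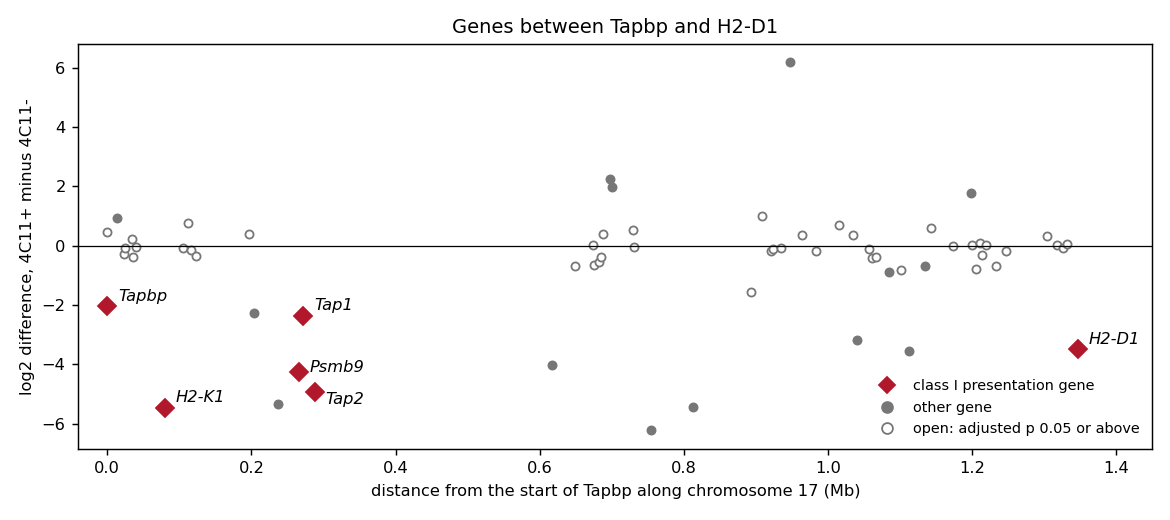
Difference of 4C11+ minus 4C11- in log2 CPM (vertical axis) for the genes between *Tapbp* and *H2-D1*, placed by the distance of their start from that of *Tapbp* in Mb (horizontal axis). The 6 class I presentation genes (diamonds) all lie below 0, while most of the 59 other genes (circles) lie near 0 with open symbols.

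The counts of the further lists are read beside the 31.1% of all genes called, in either direction, in 4C11+ against 4C11-. Of 24 other MHC class I heavy chains, 7 had a row: *H2-Q4*, *H2-T10*, *H2-T22*, *H2-T24*, *H2-M3*, *Cd1d1* and *Mr1*. In 4C11+ against 4C11- 5 of them fell and none rose (median -1.92), and 5 were higher in the mesenchymal-like lines. Of these, *Cd1d1* and *H2-T10* were near the floor in both epithelial lines. They had a row mainly through the mesenchymal-like libraries, so their direction was largely set in advance. Without 4C11- replicate 1, 4 fell, as *H2-Q4* (-1.47) had a limma adjusted p of 0.128. *Cd1d1*, which presents lipids, had 0 reads in both melan-a libraries, 28 reads or more in each 4C and 4C11- library and 1 to 2 reads in 4C11+. It rose from melan-a to 4C (limma adjusted p = 5.5e-06) and fell from 4C11- to 4C11+ by 3.43 in the fit (SE 0.44, limma adjusted p = 0.000132). *Mr1*, which presents vitamin B metabolites, was at 2.49 and 1.39 in melan-a, at 6.09, 6.36 and 7.23 in 4C, at 5.41, 5.76 and 6.24 in 4C11- and at 4.38, 4.02 and 4.92 in 4C11+. It was higher in 4C11+ than in melan-a by 2.50 (SE 0.45, limma adjusted p = 0.00356), as was *H2-Q4* by 3.33 (SE 0.80, limma adjusted p = 0.0171), which had 3 and 0 reads in melan-a and missed the threshold without melan-a replicate 3 (limma adjusted p = 0.108). *H2-T10* fell from 4C11- to 4C11+ by 3.42 in the fit (limma adjusted p = 0.00286), with 25, 9 and 9 reads in 4C11- and 0 in each 4C11+ library.

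Of 12 genes of peptide loading and trimming, 11 had a row, and in 4C11+ against 4C11- 3 fell and 1 rose (median 0.03). *Erap1*, which trims peptides in the endoplasmic reticulum, rose from melan-a to 4C by 2.56 (SE 0.41, limma adjusted p = 0.00127) and fell from 4C11- to 4C11+ by 1.47 (SE 0.37, limma adjusted p = 0.0106). *Tapbpl*, a tapasin relative that edits peptides, and *Bcap31* also fell, and *Sec61a1* rose (0.66). Without 4C11- replicate 1, 2 fell, as *Bcap31* (-0.52) had a limma adjusted p of 0.0978. Among 9 genes of the immunoproteasome activator and of proteasome assembly, 3 fell and none rose (median 0.13), close to the share of all genes called. They were *Psme1*, by 1.59 (SE 0.32, limma adjusted p = 0.00295), and *Psme2*, by 1.62 (SE 0.38, limma adjusted p = 0.00706), the subunits of the PA28 activator, and *Psmg2*. *Psme3* was higher in 4C11+ than in melan-a by 1.46 (SE 0.32, limma adjusted p = 0.0118), and by 1.05 without melan-a replicate 2. *Psmg2* (-0.70, limma adjusted p = 0.0625) was not called without 4C11- replicate 1. Of the 14 constitutive proteasome core subunits, only *Psma3* was called in 4C11+ against 4C11-, and it rose (0.75, median of the list 0.08). It was not called without 4C11- replicate 1 (0.59, limma adjusted p = 0.066). Against melan-a, with its 2 libraries, 4 core subunits were called higher in 4C and 5 in 4C11+, and none lower. Over all genes 7.64% and 8.39% were called higher in these comparisons.

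NLRC5 works with RFX, NF-Y and CREB family factors and with chromatin enzymes. *Ciita*, listed with these genes but not as a partner of NLRC5, had no row. Of the 12 of 13 listed genes with a row, in 4C11+ against 4C11- 1 rose, *Kat2b*, a histone acetyltransferase, by 1.04 (SE 0.34, limma adjusted p = 0.0354), and none fell (median 0.06). *Kat2b* was not called without 4C11- replicate 1 (0.76, limma adjusted p = 0.0961).

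All 18 listed genes of interferon signalling had a row. In 4C11+ against 4C11- 8 fell and 4 rose (median -0.42). *Irf8*, an interferon-responsive transcription factor known from blood cells, was read 0 and 1 times in melan-a, 40 to 53 times in 4C, 25 to 46 times in 4C11- and 0 times in each 4C11+ library. It thus had a row through the mesenchymal-like libraries, and its direction was largely set by that. *Irf1*, a direct activator of class I genes, had a mean of 5.04 ± 0.79 in melan-a, of 6.08 ± 0.33 in 4C, of 6.34 ± 0.48 in 4C11- and of 4.60 ± 0.08 in 4C11+, and fell from 4C11- to 4C11+ by 1.74 (SE 0.33, limma adjusted p = 0.00214). *Irf7* fell by 3.13 and *Irf9* by 2.32, and both were led by 4C11- replicate 1, where *Irf7* was at 5.97 beside 2.45 and 1.91. Without that library *Irf7* fell by 1.86 and *Irf9* by 1.63, and 6 genes of the list fell and 4 rose. The genes that rose were the receptor subunits *Ifnar1*, *Ifnar2* and *Ifngr2* and the kinase *Tyk2*.

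Of 8 NF-kappaB genes, 2 rose and none fell in 4C11+ against 4C11-, *Nfkbib* by 1.33 (SE 0.33, limma adjusted p = 0.00911) and *Nfkb1* by 0.83 (SE 0.21, limma adjusted p = 0.0116). The count was 3 without either melan-a library or without 4C11- replicate 1. Of 11 genes of MHC class II presentation 3 had a row, and 2 of them fell: *H2-DMb1* by 5.33 (SE 0.54, limma adjusted p = 2.0e-05), with 1 to 2 reads in each 4C11+ library, and *H2-DMa* by 2.28 (SE 0.51, limma adjusted p = 0.0056). *H2-DMb1* had a row mainly through the mesenchymal-like libraries, so its direction was largely set in advance. Of 12 ligands and checkpoints read together with class I, 5 had a row. *Ulbp1* and *Raet1e*, ligands of the activating natural killer receptor NKG2D, were higher in 4C11+ than in melan-a by 4.17 (SE 0.49, limma adjusted p = 0.000208) and 2.76 (SE 0.66, limma adjusted p = 0.0162), and higher in 4C than in melan-a by 2.50 and 2.82. *Ulbp1* had 3 reads or fewer in each melan-a library (-0.70 and -0.25), so the size of its differences from melan-a is uncertain. Without melan-a replicate 2, where *Raet1e* had 2 reads, both *Raet1e* calls were lost (1.30, limma adjusted p = 0.0984, and 1.37, limma adjusted p = 0.0651). *Cd274*, which encodes PD-L1, differed by 0.89 between 4C11+ and 4C11- (limma adjusted p = 0.133).

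**Figure D5:**
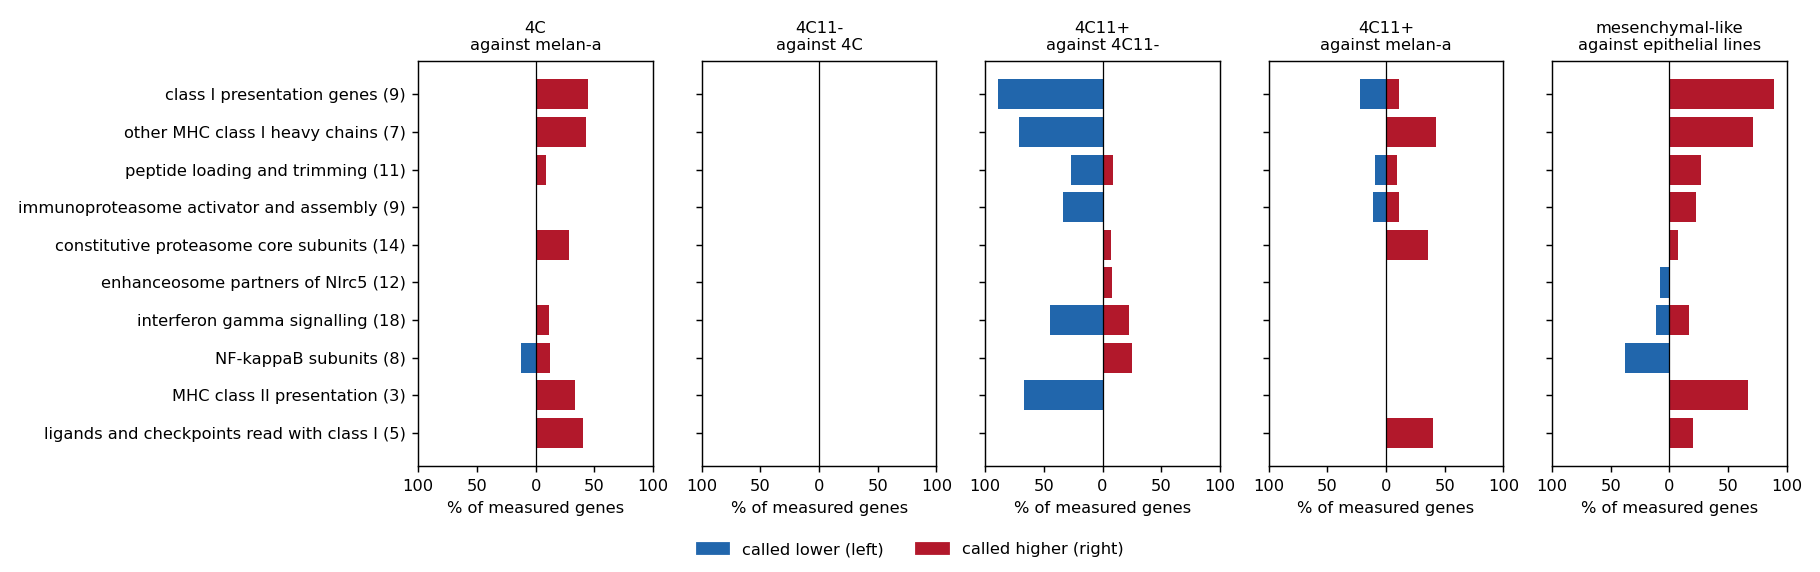
Share of the measured genes of each list (number with a row in brackets) that limma called higher (red, to the right) or lower (blue, to the left) in 5 comparisons, in percent. The class I presentation genes and the other heavy chains are mostly lower in 4C11+ against 4C11- and mostly higher in the mesenchymal-like against the epithelial lines, and limma called no gene of these lists in 4C11- against 4C.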

How the data were processed

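The libraries were stranded total RNA libraries depleted of ribosomal RNA, read as pairs. The authors trimmed reads with Trimmomatic, aligned them with STAR to GRCm38 (Ensembl annotation), counted them per gene with Rsubread, kept genes expressed in several libraries and applied voom from limma. Genes near the floor in both epithelial lines passed that filter mainly through mesenchymal-like libraries, among them *Psmb9*, *Cd1d1*, *H2-T10*, *Irf8* and *H2-DMb1*. The direction of their differences was thus largely set in advance. Tool versions and the strand setting of the counting are not given in the sources used here. The deposited values are log2 CPM, on a scale where the highest value (13.69) is the same in each library. The raw counts are not used here, so no count test was run. The lowest values of a library form steps that were read as 0, 1, 2 and more reads, which gave the read numbers. The step at 40 reads gave the rough depth. Intervals and read numbers cover counting error only. Replicates are separate cultures per the labels.

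All 14272 genes in 11 libraries were fitted with limma 3.58.1 in R 4.3.3 (a mean for each line, moderated variances that follow the mean level). Benjamini-Hochberg adjusted p-values over all genes under 0.05 were called. The code was tested on simulated data. Exon lengths and overlaps came from GENCODE M21, promoters from RefSeq, and ratios were tested with SciPy 1.17.1. Alternatives were a second quantile normalization, equal medians, a minimum mean of 1, no trend, robust variance, array weights, a replicate block, the compared lines alone and each library left out. From each further list the counts and up to 4 called genes with the largest differences are named, or genes that account for a count. *Irf1* and *Cd274* were named outside this rule, after their values were seen. The listed genes, the further lists and the tests were chosen with earlier results of these data known.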

Additional observations from a re-analysis of the deposited data

How the results depend on the processing

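Of 846 differences of single genes recomputed under the alternatives, 803 kept their direction and their side of the threshold, 16 lost and 8 gained a call, 19 changed sign without a call on either side, and no called difference changed sign. The second quantile normalization and equal medians kept 45 each. They could change little, as the libraries already shared their highest value and nearly their median. The count for 4C against melan-a (4 genes) ranged from 4 to 7 with single libraries left out and that for 4C11+ against melan-a (3 genes) from 0 to 3, both moved by melan-a replicate 2. Over all genes, the count for 4C11- against 4C (238) was 125 with a minimum mean of 1, 143 with the compared lines alone, 2501 with array weights and 93 to 320 with single libraries left out. That for 4C11+ against 4C11- (4433) was 9238 with array weights, and that for 4C11+ against melan-a (2270) was 1446 with the compared lines alone and 1089 to 2864 with single libraries left out. Array weights were estimated gene by gene, since the restricted maximum likelihood estimate did not converge, and ranged from 0.219 for 4C11- replicate 1 to 4.71. The cause of these shifts was not tested. The *H2-K1* difference between 4C11+ and melan-a rested on 4 melan-a reads and lost its call under 10 alternatives, and that of *Nlrc5* was lost with the compared lines alone (limma adjusted p = 0.0511).

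Replicate numbers gave no clear pairing: deviations of same-numbered libraries correlated at -0.226 to 0.388. These deviations are taken from the means of very few libraries a line, so they cannot exclude a pairing or a shared batch. With the replicate block 8 genes fell in 4C11+ against 4C11-, 4 rose in 4C against melan-a and 2 passed in 4C11+ against melan-a, where *H2-K1* (2.33) had a limma adjusted p of 0.0942. Low depth limits *Nlrc5*, *H2-K1* and *Psmb9* where a line holds 7 reads or fewer, and *Tap2* in 4C11+, with 9. Genes most like *Nlrc5* changed with Spearman's rho. Leaving out single libraries left the ratio calls in place, except that *Psmb10* to *Psmb7* passed without 4C11- replicate 1 (-0.43, exact permutation p = 0.0238, unadjusted).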
